A study of Mus musculus with 10 samples.

Results

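The genes described here are 54 enzymes of amino acid, creatine and taurine metabolism, a list that also holds *Miox*, the enzyme that opens the ring of inositol. The members were taken by symbol from the 21792 genes of the deposited values, and 53 of them had values. *Tdo2* was not analysed here. *Tat* fell under the limit on low values that was set for testing, so 52 members were tested among 17129 genes.

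The cells of the proximal tubule take back the amino acids of the filtrate and degrade, interconvert or release them. The kidney cortex is known for making arginine from citrulline, for the amidinotransferase step of creatine synthesis, for the conversion of glycine to serine, for taurine synthesis from cysteine, and for peroxisomal oxidation of D-amino acids. It also degrades inositol, an organic osmolyte, through *Miox*. Most of these enzymes sit in mitochondria, the cytosol or peroxisomes of tubular cells, while arginase-2, the proline reductase *Pycr1* and the serine and asparagine synthases are also made by many other cells.

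RNA of the renal cortex from 10 WT mice was profiled at Day 28, in 4 sham mice and 6 mice with aristolochic acid nephropathy (AAN). AAN was induced with 1 intraperitoneal dose of aristolochic acid, a plant toxin that injures the proximal tubule, at 5 mg/kg in PBS, and the sham mice received PBS alone. The labels give no age or sex for these mice. For its AAN model, the methods of the study name male C57BL/6 mice, all of 1 age. Each library came from a separate mouse with its own tag, so p-values measure the spread between mice, and no tag is shared between the groups. The values are FPKM, in which the fragments of a gene are divided by its length and by the size of the library, so that levels of different genes can be compared per length. Fold changes are given as AAN minus sham on the log2(FPKM + 0.1) scale, where -1 is a fall to 50% of the sham level, and a gene was called when it had both an adjusted p no higher than 0.05 and at least a 2-fold change.

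The libraries held 13.4 to 17.5 M fragments, as recovered from the steps between low values. Over all genes tested, the median log2 fold change was 0.75, and 82.3% of genes lay above 0, so a member at 0 was already below most genes. Transcripts encoded by the mitochondrial genome took 39.5% to 61.4% of the summed FPKM of sham mice, and 21.4% to 55.0% of that of AAN mice. Markers of the proximal tubule were present in every library, with *Slc34a1* at 1231 to 2754 FPKM in sham mice and 390.2 to 1487 FPKM in AAN mice. Over 12 proximal tubule markers, 9 fell, and the mean log2 level was 6.39 to 7.20 in sham mice, 5.94 in AAN mouse 2 and 4.17 to 4.52 in the other 5 AAN mice. AAN mouse 2 therefore stood apart from its group, and results that rest on it are given with and without it. In bulk cortex, fewer cells of a type and less RNA per cell cannot be told apart.

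Markers of other cells moved with the groups. All 7 fibroblast markers, 6 of 6 leukocyte markers, 6 of 6 macrophage markers, 5 of 5 T cell markers, 7 of 7 injured tubule markers and 5 of 5 proliferation markers rose. The mean log2 level of the macrophage list lay at 1.51 to 2.15 for sham mice and at 5.54 to 6.77 for AAN mice. Among the other segments, 1 of 5 thick limb markers and 2 of 9 distal tubule and collecting duct markers fell, and 1 of 5 podocyte markers rose. Without AAN mouse 2, *Umod* of the thick limb list (-1.49, limma adjusted p = 0.017) was called lower as well. The same held for *Aqp3* of the distal tubule and collecting duct list (-1.48, limma adjusted p = 0.0069). The 6 endothelial markers had log2 fold changes of -0.27 to 0.93, of which 4 passed an adjusted p of 0.05 in limma but missed the fold limit. Of 5 genes chosen for hepatocytes, a cell type the cortex should lack, 3 fell and 1 rose. They did not move together, and with the levels below they are no measure of an absent cell type. *Alb* and *Apoa2* reached at most 3.88 and 3.40 FPKM in any mouse, *Serpina1a* 8.21 FPKM and *Fga* 41.7 FPKM, and *Ttr*, the highest of the list, lay at 64.8 to 203.8 FPKM in sham mice and 19.3 to 63.4 FPKM in AAN mice. The part of these cell shifts in the values of the enzymes was not tested.

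Of the 52 members tested, 27 fell, 4 rose and 21 did not pass both limits. Among all genes tested, 3.43% fell and 35.8% rose under the same limits. The members that fell ranged from -5.38 for *Hpd* to -1.09 for *Pcca*, with a median of -1.59. *Arg2*, *Asns*, *Pycr1* and *Phgdh* rose, by 1.70 to 3.83. The median log2 fold change of the 52 members was -1.09, against 0.75 over all genes, and 47 members lay below the median of all genes. When the mice were rescaled by the median of ratios, which moved the median of all genes to 0.06, 40 members fell and 3 rose, beside 10.5% and 19.0% of all genes, and *Phgdh* was the member no longer called higher.

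**Figure D1:**
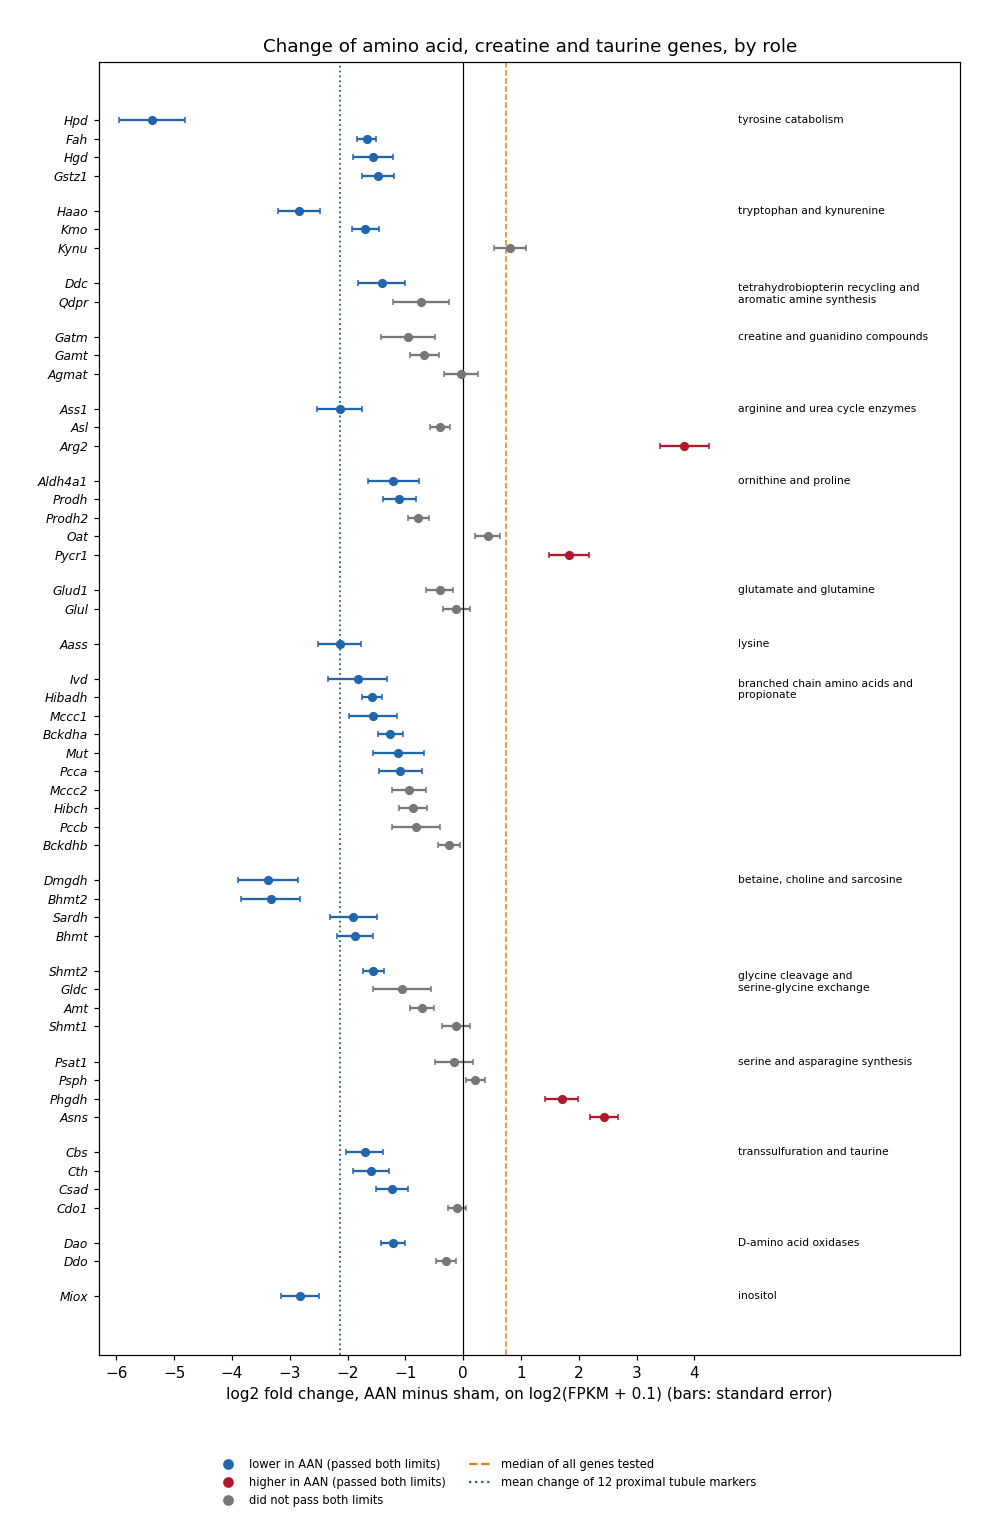
Log2 fold change of the 52 members tested (AAN minus sham, log2(FPKM + 0.1), horizontal axis), grouped by role, with bars of 1 standard error. Blue points fell, red points rose and grey points did not pass both limits; 47 points lie left of the dashed line at the median of all genes (0.75).

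The summed level of the members was 3973 ± 560.4 FPKM in sham mice (mean ± SD, n = 4) and 1546 ± 614.1 FPKM in AAN mice (n = 6). AAN mouse 2 held 2764 FPKM of it, below the lowest sham mouse at 3247 FPKM, and the other 5 AAN mice held 1124 to 1511 FPKM. In sham mice *Miox*, *Ass1* and *Gatm* made 42.3% of the sum, and 10 members were above 100 FPKM. In AAN mice 5 members were above 100 FPKM. AAN mouse 2 had the highest level among the AAN mice in 26 of the 27 members that fell. Without this mouse, 32 members fell and 4 rose, and the 5 additions were *Gldc*, *Gatm*, *Mccc2*, *Hibch* and *Pccb*. Of all genes, 703 fell without AAN mouse 2, against 588 with all mice. Over the settings with a mouse left out, 5488 to 6684 of all genes rose, against 6126 with all mice. The values of all mice were without overlap between the groups in 19 members that were lower in AAN and 4 that were higher, beside 3.25% and 40.3% of all genes.

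**Figure D2:**
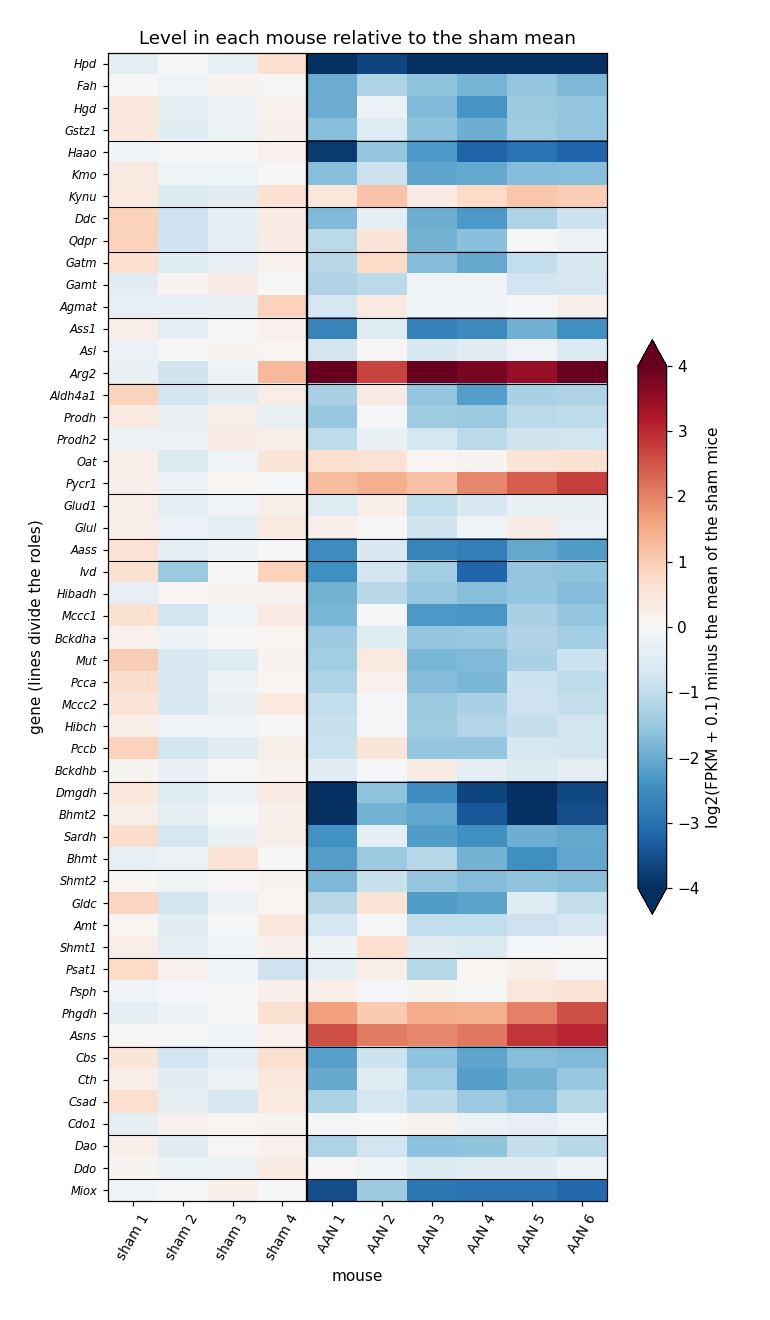
Log2(FPKM + 0.1) of each tested member (rows, divided by role) in each of the 10 mice (columns), minus the mean of the 4 sham mice; blue is lower, red is higher, and colors end at 4 on either side. AAN mouse 2 is paler than the other 5 AAN mice in most rows that fell, and *Arg2*, *Pycr1*, *Phgdh* and *Asns* are red in all 6 AAN mice.

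Tyrosine is degraded by *Tat*, *Hpd*, *Hgd*, *Gstz1* and *Fah* in this order, and all 4 tested enzymes of the chain fell. *Hpd* (ENSMUSG00000029445, chr5:123171807-123182727, minus strand, GRCm38), the dioxygenase that makes homogentisate, had the largest fall of all members. Its level was 8.85, 11.2, 9.35 and 18.2 FPKM in the sham mice and at most 0.804 FPKM in the AAN mice, with a median of 0.109 FPKM and 1 mouse at 0. The groups were far apart, with the AAN mean at 2.34% of the sham mean and a log2 fold change of -5.38 ± 0.57 (SE; limma adjusted p = 8.3e-06). The next enzymes fell less. *Fah*, the last hydrolase of the chain, went from 185.0 ± 17.8 to 58.7 ± 11.5 FPKM (log2 fold change -1.67 ± 0.17, limma adjusted p = 6.7e-06). *Gstz1*, the isomerase before it, fell by 1.47 on the log2 scale, and *Hgd*, which opens the aromatic ring, fell by 1.55. In AAN mouse 2, *Hgd* stood at 83.7 FPKM, within the sham range of 76.1 to 132.2 FPKM, while the other AAN mice had 19.0 to 36.0 FPKM. *Tat*, the aminotransferase of the first step, was listed at 0 in all 4 sham mice and at 0 to 0.174 FPKM in AAN mice, which is at most 6.60 fragments. *Hpd* overlaps *Psmd9* on the opposite strand, and strand use in the counting is not stated.

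Tryptophan is degraded through kynurenine, which *Kmo* hydroxylates, *Kynu* cleaves and *Haao* oxidizes towards NAD. *Haao* was at 159.3, 160.7, 173.6 and 191.2 FPKM in sham mice and at 11.8 to 57.8 FPKM in AAN mice, with a median of 20.5 FPKM. Every AAN mouse was below every sham mouse, and the fall was -2.84 ± 0.36 (limma adjusted p = 3.7e-05). *Kmo* fell from 14.2 ± 2.62 to 4.48 ± 1.63 FPKM, again without overlap, although its gene overlaps *Fh1* on the other strand. *Kynu*, which lies between them in the pathway, was at 0.938 ± 0.404 FPKM in sham mice and 1.65 ± 0.389 FPKM in AAN mice. Its log2 fold change of 0.81 did not reach the fold limit (limma adjusted p = 0.024), was 1.01 and passed without sham mouse 4, and was -0.34 under quantile normalization.

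*Ddc*, which makes dopamine from L-DOPA in the proximal tubule, fell from 13.3 ± 7.05 to 4.92 ± 2.57 FPKM (log2 fold change -1.41 ± 0.41, limma adjusted p = 0.011). Its groups overlapped, since sham mouse 2 had 6.66 FPKM and AAN mouse 2 had 9.17 FPKM. *Qdpr*, the reductase that recycles tetrahydrobiopterin, had 32.8 ± 17.3 FPKM in sham mice and 21.3 ± 13.2 FPKM in AAN mice, and its difference of -0.73 ± 0.49 was within the spread between mice (limma adjusted p = 0.21). It passed both limits after the median of ratios, at -1.47 (limma adjusted p = 0.017).

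Creatine synthesis starts with *Gatm*, which the proximal tubule makes at a high level, and ends with *Gamt*, which is known mainly from liver. *Gatm* was at 290.1, 127.3, 145.4 and 204.8 FPKM in the sham mice. Among the AAN mice the lowest level was 43.9, the median 88.1 and the highest 311.2 FPKM. The highest value of all 10 mice was that of AAN mouse 2, and the other 5 AAN mice, at 43.9 to 119.2 FPKM, lay below every sham mouse. With all mice the log2 fold change was -0.95 ± 0.47 (limma adjusted p = 0.095), and without AAN mouse 2 it was -1.30 and passed. *Gamt* had 7.94 ± 1.75 FPKM in sham mice and 5.05 ± 1.57 FPKM in AAN mice, a difference of -0.67 that passed the adjusted p (0.032, limma) and missed the fold limit. *Agmat*, named for the hydrolysis of agmatine, was near 1 FPKM in both groups and had a log2 fold change of -0.04, whose sign turned when sham mouse 4 or AAN mouse 1 was left out.

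Arginine is made from citrulline by *Ass1* and *Asl* and is split by *Arg2*, the mitochondrial arginase. *Ass1* (ENSMUSG00000076441, chr2:31470207-31520672, plus strand) was at 583.4, 366.3, 466.3 and 537.2 FPKM in sham mice and at a lowest level of 74.3, a median of 85.0 and a highest level of 337.9 FPKM in AAN mice. AAN mouse 2 was close to the lowest sham mouse, and the other AAN mice reached at most 127.4 FPKM. The fall was -2.13 ± 0.39 (limma adjusted p = 5.9e-04). *Asl*, the next step, differed by -0.40 ± 0.18 (limma adjusted p = 0.066), from 31.7 ± 3.41 to 24.3 ± 5.12 FPKM. It passed both limits after the median of ratios, at -1.16 (limma adjusted p = 5.5e-04).

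*Arg2* (ENSMUSG00000021125, chr12:79130777-79156301, plus strand) had the largest rise of all members. The sham mice had 0.600, 0.398, 0.638 and 1.996 FPKM, and the AAN mice had 5.49 to 19.4 FPKM with a median of 12.8 FPKM. AAN mouse 2 was the lowest of its group and still above every sham mouse. The log2 fold change was 3.83 ± 0.42 (limma adjusted p = 1.3e-05), and the AAN mean was 14.4 times the sham mean. As a gene with 1 annotated transcript, *Arg2* was covered by 8.97 to 432 fragments per library. It overlaps *Vti1b* on the opposite strand, which had a mean of 21.4 FPKM over all mice.

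Ornithine and proline share an intermediate, pyrroline carboxylate, which *Oat* makes from ornithine and *Prodh* from proline, *Aldh4a1* oxidizes to glutamate, and *Pycr1* reduces back to proline. *Prodh* fell from 35.9 ± 8.65 to 17.4 ± 7.97 FPKM (log2 fold change -1.10 ± 0.28, limma adjusted p = 0.0049), and *Aldh4a1* fell from 58.3 ± 30.4 to 26.8 ± 19.9 FPKM (-1.21 ± 0.44, limma adjusted p = 0.032). Both overlapped between the groups through AAN mouse 2. The call of *Prodh* was lost without sham mouse 1, and that of *Aldh4a1* in 8 of 20 other settings. *Prodh2*, the dehydrogenase of hydroxyproline, was lower in every AAN mouse than in any sham mouse, at 7.78 to 13.2 against 13.8 to 20.2 FPKM, but its change of -0.78 ± 0.19 missed the fold limit (limma adjusted p = 0.0035). *Oat* was abundant in both, at 97.0 ± 29.8 FPKM in sham mice and 126.8 ± 21.5 FPKM in AAN mice. Its log2 fold change of 0.42 did not pass and was -0.34 after the median of ratios.

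*Pycr1* was almost absent from sham cortex, at 0 to 0.0364 FPKM or at most 2.51 fragments, and was measured in every AAN mouse at 0.165 to 0.704 FPKM, or up to 45.1 fragments. All AAN mice were above all sham mice, and the log2 fold change of 1.83 ± 0.35 (limma adjusted p = 7.4e-04) depends on the pseudocount because the sham level is near 0. It was 0.40 with a pseudocount of 1, where the gene was not called.

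**Figure D3:**
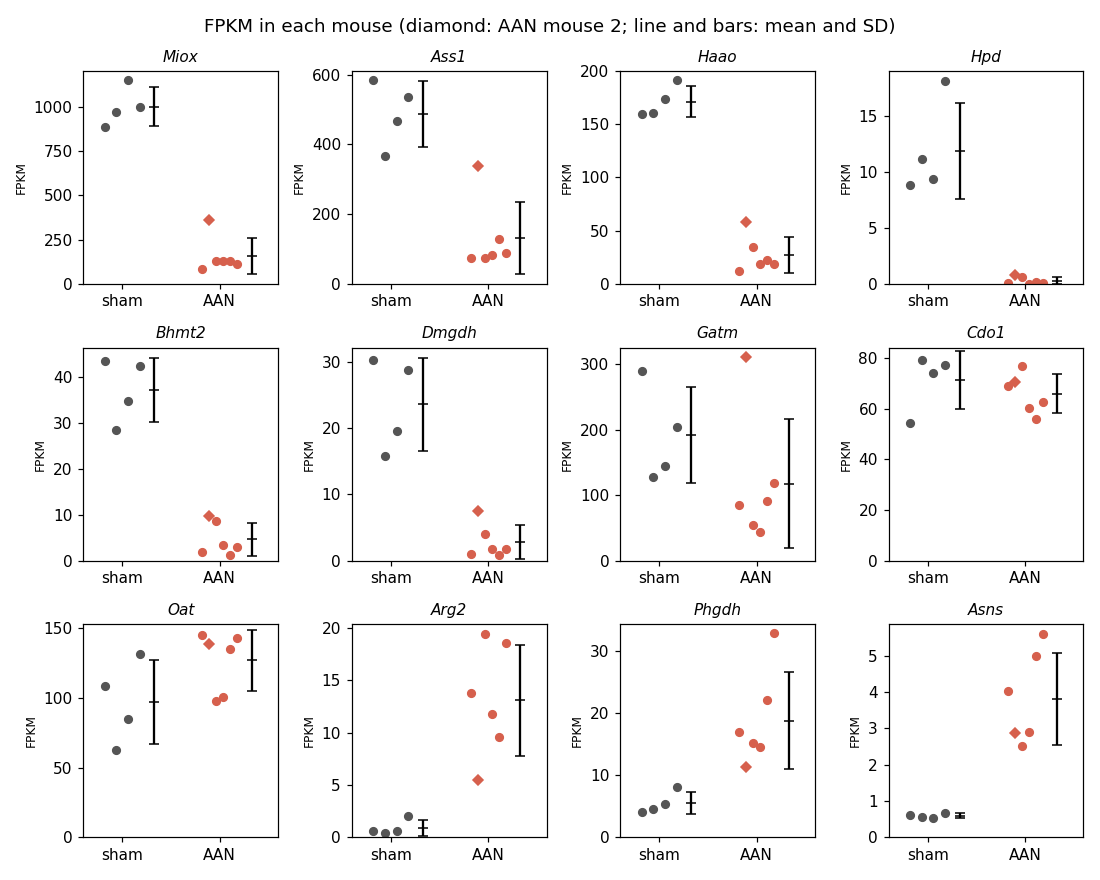
FPKM of 12 members in each mouse (vertical axes from 0, a scale for each gene), with sham mice in grey and AAN mice in red; the diamond is AAN mouse 2, and the line with bars is the mean with 1 SD (n = 4 and n = 6). *Gatm* and *Ass1* show AAN mouse 2 apart from the other AAN mice, *Cdo1* and *Oat* overlap between the groups, and *Arg2*, *Phgdh* and *Asns* do not.

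Glutamate dehydrogenase, *Glud1*, and glutamine synthetase, *Glul*, did not pass the limits. *Glud1* had 90.5 ± 17.4 FPKM in sham mice and 70.0 ± 21.5 FPKM in AAN mice, and *Glul* had 130.2 ± 31.5 and 120.7 ± 30.3 FPKM. Their log2 fold changes were -0.40 ± 0.23 and -0.12 ± 0.24. After the median of ratios *Glud1* was at -1.17 and called lower (limma adjusted p = 5.0e-04), and *Glul* was at -0.88 and not called. *Aass*, the bifunctional enzyme of the first steps of lysine degradation, was at 138.8, 72.5, 81.4 and 91.6 FPKM in sham mice and at 13.7 to 60.6 FPKM in AAN mice, with a median of 18.0 FPKM. It fell by 2.14 on the log2 scale without overlap between the groups (limma adjusted p = 4.6e-04).

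The degradation of leucine, isoleucine and valine, together with that of propionyl-CoA, was represented by 10 members, of which 6 fell. The first committed enzyme is the branched chain ketoacid dehydrogenase, whose E1 subunits are *Bckdha* and *Bckdhb*. *Bckdha* fell from 189.9 ± 21.5 to 81.8 ± 27.3 FPKM without overlap (-1.26 ± 0.22, limma adjusted p = 3.7e-04), whereas *Bckdhb* had 10.2 ± 1.25 and 8.74 ± 2.08 FPKM (-0.25 ± 0.18, limma adjusted p = 0.26). In the leucine branch, *Ivd*, the isovaleryl-CoA dehydrogenase, fell by 1.82, and *Mccc1*, a subunit of methylcrotonyl-CoA carboxylase, fell by 1.56. *Ivd* varied widely among the sham mice, from 13.6 FPKM in sham mouse 2 to 71.2 FPKM in sham mouse 4. The other subunit, *Mccc2*, had -0.93 and missed the fold limit (limma adjusted p = 0.016). In the valine branch, *Hibadh*, the hydroxyisobutyrate dehydrogenase, was at 41.3 to 56.6 FPKM in sham mice and 14.1 to 24.2 FPKM in AAN mice and fell by 1.58 (limma adjusted p = 1.4e-05). *Hibch*, the hydrolase before it, had -0.87 ± 0.24 (limma adjusted p = 0.0078) and missed the fold limit.

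For propionyl-CoA, *Pcca* and *Mut* fell by 1.09 and 1.12, and *Pccb*, the partner subunit of *Pcca* in propionyl-CoA carboxylase, had -0.81 ± 0.41 (limma adjusted p = 0.11). AAN mouse 2 was within the sham range for all 3 genes, at 13.8, 37.0 and 68.9 FPKM. *Pcca* overlaps *Ggact* on the opposite strand, which had a mean of 11.3 FPKM over all mice, against 9.05 FPKM for *Pcca*. The falls of *Pcca* and *Mut* lay just past the fold limit and were lost in 6 and 10 of 20 other settings. Without AAN mouse 2, 9 of the 10 members of this group fell, *Bckdhb* being the exception. This mouse was the highest AAN mouse in 9 of the 10, so leaving it out lowered their AAN means by construction. After the median of ratios all 10 were called lower, beside 10.5% of all genes. *Bckdhb* was then just past the fold limit (limma adjusted p = 0.0012).

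The choline chain runs from betaine over dimethylglycine and sarcosine to glycine. Its enzymes were grouped here with *Bhmt2*, which is not a step of it, and all 4 members of the group fell. *Dmgdh*, the dimethylglycine dehydrogenase, was at 30.3, 15.8, 19.5 and 28.7 FPKM in sham mice and at 0.825 to 7.44 FPKM in AAN mice, with a median of 1.73 FPKM. *Bhmt2*, a methyltransferase that lies beside it on chromosome 13, was at 43.3, 28.4, 34.6 and 42.3 FPKM in sham mice and at 1.23 to 9.79 FPKM in AAN mice. Neither gene overlapped between the groups, and both were lowest in AAN mouse 5. Their log2 fold changes were -3.38 ± 0.52 and -3.33 ± 0.51, each with a limma adjusted p of 1.7e-04. *Sardh*, the sarcosine dehydrogenase, fell by 1.90, with AAN mouse 2 at 40.7 FPKM and the other AAN mice at 9.41 to 13.4 FPKM. *Bhmt*, which methylates homocysteine with betaine and is known mainly from liver, was low in sham cortex, at 0.467 ± 0.163 FPKM, and fell to 0.0579 ± 0.0559 FPKM, a change that was not called with a pseudocount of 1.

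In the glycine cleavage system and the serine hydroxymethyltransferases, 1 of 4 members fell. *Shmt2*, the mitochondrial hydroxymethyltransferase, went from 132.8 ± 10.8 to 46.3 ± 12.5 FPKM without overlap (-1.55 ± 0.19, limma adjusted p = 2.5e-05). *Shmt1*, the cytosolic form, had 7.71 ± 1.48 and 7.29 ± 2.56 FPKM (-0.12 ± 0.24, limma adjusted p = 0.67). *Gldc*, the decarboxylase of glycine cleavage, had 38.2 ± 18.6 and 21.0 ± 16.3 FPKM. It passed only without AAN mouse 2, which held 51.3 FPKM, and its log2 fold change was then -1.38 instead of -1.06. *Amt*, the aminomethyltransferase of the same complex, had -0.71 ± 0.21 and missed the fold limit (limma adjusted p = 0.013).

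Serine is made from a glycolytic intermediate by *Phgdh*, *Psat1* and *Psph*, and asparagine by *Asns*. *Asns* (ENSMUSG00000029752) was at 0.624, 0.555, 0.534 and 0.679 FPKM in sham mice and at 2.53 to 5.60 FPKM in AAN mice, with a median of 3.46 FPKM. Every AAN mouse was above every sham mouse, and the log2 fold change was 2.43 ± 0.24 (limma adjusted p = 4.9e-06). *Phgdh*, the dehydrogenase of the first step, was at 4.04, 4.62, 5.42 and 8.16 FPKM in sham mice and at 11.3 to 32.8 FPKM in AAN mice, with a median of 16.1 FPKM. It rose by 1.70 ± 0.29 without overlap (limma adjusted p = 3.6e-04), and by 0.95 after the median of ratios, where it missed the fold limit. *Psat1* had 5.22 ± 2.33 and 4.52 ± 1.40 FPKM (-0.16 ± 0.33). *Psph* had 2.32 ± 0.259 and 2.72 ± 0.480 FPKM (0.21 ± 0.17, and -0.53 after the median of ratios and -0.73 under quantile normalization). Neither passed the limits. *Psph* overlaps *Cct6a* on the opposite strand, which had a mean of 25.1 FPKM over all mice, against 2.56 FPKM for *Psph*.

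The upstream regions of *Asns*, *Pycr1* and *Phgdh*, members that rose, are shown with the letters searched for ATF4, the transcription factor of the amino acid response. Whether ATF4 acts on any member was not tested. The sequences are the 250 bases before the start site in the RefSeq promoter table (GRCm38.p6), written 5′ to 3′ on the strand of the gene, and capitals mark a match to TGATGNAA, the letters searched for ATF4 on both strands. The regions are chr6:7693210-7693459 for *Asns*, chr11:120643749-120643998 for *Pycr1* and chr3:98339970-98340219 for *Phgdh*, all on the minus strand.
Asns: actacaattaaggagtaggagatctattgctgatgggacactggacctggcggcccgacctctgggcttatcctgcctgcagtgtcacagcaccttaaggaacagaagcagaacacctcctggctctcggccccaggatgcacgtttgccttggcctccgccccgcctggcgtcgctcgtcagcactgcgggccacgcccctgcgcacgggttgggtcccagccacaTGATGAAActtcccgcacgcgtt
Pycr1: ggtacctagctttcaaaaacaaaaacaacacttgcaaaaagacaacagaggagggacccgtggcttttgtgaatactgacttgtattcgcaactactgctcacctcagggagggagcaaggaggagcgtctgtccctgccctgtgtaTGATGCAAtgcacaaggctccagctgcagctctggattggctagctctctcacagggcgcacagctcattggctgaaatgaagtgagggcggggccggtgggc
Phgdh: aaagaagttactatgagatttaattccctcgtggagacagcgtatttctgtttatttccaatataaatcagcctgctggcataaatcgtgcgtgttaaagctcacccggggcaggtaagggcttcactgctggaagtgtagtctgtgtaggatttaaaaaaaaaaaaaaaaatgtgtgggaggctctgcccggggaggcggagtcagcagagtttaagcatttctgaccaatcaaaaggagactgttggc
The match of *Asns* started 23 bases and that of *Pycr1* 103 bases before the start site.

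The windows searched ran from 250 bases before to 50 after the start site, and 48 of the 54 members had at least 1 window. No window was at hand for *Arg2*, *Asl*, *Cdo1*, *Cth*, *Kynu* and *Mut*. TGATGNAA occurred in 2 of the 48 members (4.17%), against 4.51% of all 27025 genes with a window. These 2 were *Asns* and *Pycr1*. The motif was chosen with earlier results of these data known, so their place among the members that rose is no test of ATF4. GTTAATNAT, the letters searched for HNF1, was found in *Prodh2* among the members and in 0.940% of all genes. CAAAGTCCA, searched for HNF4, was found in 0 members and in 0.555% of all genes. These are matches of letters in a short window and give no measure of binding.

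Homocysteine is turned into cysteine by *Cbs* and *Cth*, and cysteine into the taurine precursor hypotaurine by *Cdo1* and *Csad*. *Cbs* was at 30.8, 13.0, 17.1 and 34.8 FPKM in sham mice and at 4.83 to 12.2 FPKM in AAN mice and fell by 1.70 (limma adjusted p = 6.9e-04). *Cth* fell by 1.59 (limma adjusted p = 9.2e-04) and *Csad* by 1.23 (limma adjusted p = 0.0025), from 53.3 ± 22.1 to 21.7 ± 5.45 FPKM. None of these 3 genes overlapped between the groups. *Cdo1*, the cysteine dioxygenase between them, was at 54.5, 79.3, 74.3 and 77.3 FPKM in sham mice and at 56.1 to 77.0 FPKM in AAN mice, with a median of 65.8 FPKM. Its groups lay over each other, with a log2 fold change of -0.11 ± 0.16 (limma adjusted p = 0.57), which is -0.85 relative to the median of all genes.

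*Dao*, the oxidase of neutral D-amino acids, fell from 78.8 ± 14.6 to 34.3 ± 8.36 FPKM without overlap (-1.21 ± 0.21, limma adjusted p = 4.3e-04). *Ddo*, which acts on acidic D-amino acids, had 12.9 ± 2.26 and 10.5 ± 1.64 FPKM and did not pass (-0.30 ± 0.17, limma adjusted p = 0.14). After the median of ratios *Ddo* was at -1.06 and called lower (limma adjusted p = 4.1e-05). *Miox* (ENSMUSG00000022613, chr15:89334398-89337015, plus strand), the most abundant member, was at 887.7, 969.3, 1150 and 997.1 FPKM in sham mice. In AAN mice the lowest level was 85.0, the median 129.1 and the highest 361.0 FPKM, which was that of AAN mouse 2. The fall of -2.83 ± 0.33 (limma adjusted p = 1.8e-05) left the AAN mean at 15.8% of the sham mean.

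The 21 members that did not pass both limits ranged from -1.06 to 0.81, with a median of -0.40. Of these, 6 met the limit on the adjusted p but not on the fold, namely *Mccc2*, *Hibch*, *Prodh2*, *Amt*, *Gamt* and *Kynu*. *Kynu* was the only one of the 21 that lay above the median of all genes, at 0.06 above it. After the median of ratios, 13 of the 21 were called lower, beside 10.5% of all genes. The 13 were *Gldc*, *Gatm*, *Mccc2*, *Hibch*, *Pccb*, *Prodh2*, *Qdpr*, *Amt*, *Gamt*, *Glud1*, *Asl*, *Ddo* and *Bckdhb*.

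The members were also set beside the 12 proximal tubule markers, whose mean log2 level differed by -2.12 between the groups. The markers ranged widely, from -4.51 to 0.12 with a median of -1.78, and 44 of the 52 members lay within that range. In 45 of the 52 members the log2 fold change lay above the mean of the markers, and in *Hpd*, *Dmgdh*, *Bhmt2*, *Haao*, *Miox*, *Aass* and *Ass1* it lay below. For *Aass* and *Ass1* the distance was 0.01, well within their standard errors. *Hpd* lay 3.26 and *Dmgdh* 1.26 below the mean. Against the median of the markers, 42 members lay above and 10 below, with *Sardh*, *Bhmt* and *Ivd* added to those below.

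To ask whether enzymes of the same step, complex or chain moved apart, the log2 ratio of 27 pairs was compared within mice. A scaling factor of a mouse cancels in such a ratio where both levels are far above the pseudocount of 0.1 FPKM, and not where a member is near it, as *Tat*, *Pycr1*, *Bhmt* and, in AAN mice, *Hpd* were. Each difference of group means was tested by exact permutation, two-sided, with all 210 ways to divide the 10 mice into 4 and 6, and adjusted by Benjamini-Hochberg over the 27 pairs. The ratio differed in 16 pairs. The pairs were chosen with earlier results of these data known, and some share a gene, as *Kmo*/*Kynu* and *Kynu*/*Haao* do. How often other pairs of genes differ was not tested, so the count is no measure of partner enzymes moving apart. The *Tat*/*Hpd* pair is left aside here because *Tat* was under the limit on low values, so that its ratio restates the fall of *Hpd*, and 15 of 26 pairs remain. The smallest p this design allows is 0.00476, which is 0.0161 after adjustment. In 8 of the 15 pairs the difference passed in all 13 other settings, namely *Hpd*/*Hgd*, *Prodh*/*Pycr1*, *Kmo*/*Kynu*, *Ass1*/*Asl*, *Dao*/*Ddo*, *Shmt1*/*Shmt2*, *Arg2*/*Oat* and *Kynu*/*Haao*. In the settings with fewer mice the smallest p was 0.00794 to 0.0179 before adjustment, and in the 3 sham and 5 AAN mice whose tags start with B the lowest adjusted p was 0.0482, so each lost call is given with the range of its difference.

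Within tyrosine degradation, *Hpd* lost 3.83 ± 0.45 more than *Hgd* on the log2 scale (exact permutation test, adjusted p = 0.0161). The size of this difference depends on the pseudocount, since *Hpd* in AAN mice is near it, and was -1.79 with a pseudocount of 1 and -4.89 with 0.01. The ratios of *Hgd* to *Gstz1* and of *Gstz1* to *Fah*, the following steps, differed by -0.09 ± 0.10 and 0.20 ± 0.23 and did not pass. In the kynurenine chain, the *Kmo*/*Kynu* ratio fell by 2.50 ± 0.27 and the *Kynu*/*Haao* ratio rose by 3.64 ± 0.41. In arginine synthesis, the *Ass1*/*Asl* ratio fell by 1.73 ± 0.32, from a mean of 3.93 in sham mice to 2.20 in AAN mice, and AAN mouse 2, at 3.38, was just below the sham range of 3.47 to 4.45.

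In proline metabolism, the ratio of the degrading *Prodh* to the synthesizing *Pycr1* fell by 2.93 ± 0.35, from 7.99 to 8.39 in sham mice to 4.44 to 6.71 in AAN mice. With *Pycr1* of sham mice below the pseudocount, this size is set by it, and the ratio fell by 1.46 with a pseudocount of 1 and by 4.79 with 0.01. The *Arg2*/*Oat* ratio, for the enzymes that make and use ornithine, rose by 3.41 ± 0.43. With *Arg2* low in sham mice, its size also depends on the pseudocount, and was 2.44 with a pseudocount of 1 and 3.58 with 0.01. Between the hydroxymethyltransferases, the *Shmt1*/*Shmt2* ratio rose by 1.43 ± 0.13, without overlap between mice. The *Dao*/*Ddo* ratio fell by 0.92 ± 0.17.

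Subunits of 1 complex were compared as well. The *Bckdha*/*Bckdhb* ratio fell by 1.01 ± 0.20 (exact permutation test, adjusted p = 0.0234), and the differences of *Mccc1*/*Mccc2* and *Pcca*/*Pccb* were -0.62 ± 0.16 and -0.27 ± 0.11, with an adjusted p of 0.0402 and 0.0343 in the same exact test. The *Bckdha*/*Bckdhb* call was lost in the mice with B tags, where few splits exist, and its difference stayed between -1.13 and -0.84. The other 2 calls were lost in 10 and 9 of the 13 other settings, mostly those with fewer mice, while the differences stayed between -0.75 and -0.40 and between -0.35 and -0.18. In the choline chain, *Dmgdh* fell by 1.48 ± 0.35 more than *Sardh*, a call that was lost in 6 of 13 settings, all with fewer mice, while the difference stayed between -1.73 and -1.04. The *Bhmt*/*Bhmt2* ratio rose by 1.45 ± 0.38 (exact permutation test, adjusted p = 0.0321), a call lost in 8 settings, and its size was 2.52 with a pseudocount of 1 and 0.12 with 0.01. The *Cdo1*/*Csad* ratio rose by 1.12 ± 0.42 and the *Phgdh*/*Psat1* ratio by 1.87 ± 0.62, and these were lost in 3 and 7 settings with fewer mice. Over all such settings the differences were 0.78 to 1.38 and 1.48 to 2.34. *Cbs*/*Cth*, *Gatm*/*Gamt*, *Glud1*/*Glul*, *Gldc*/*Amt*, *Psat1*/*Psph*, *Prodh*/*Prodh2*, *Prodh*/*Aldh4a1*, *Pcca*/*Mut* and *Hibch*/*Hibadh* did not pass, the last with 0.71 ± 0.25 (exact permutation test, adjusted p = 0.0529).

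**Figure D4:**
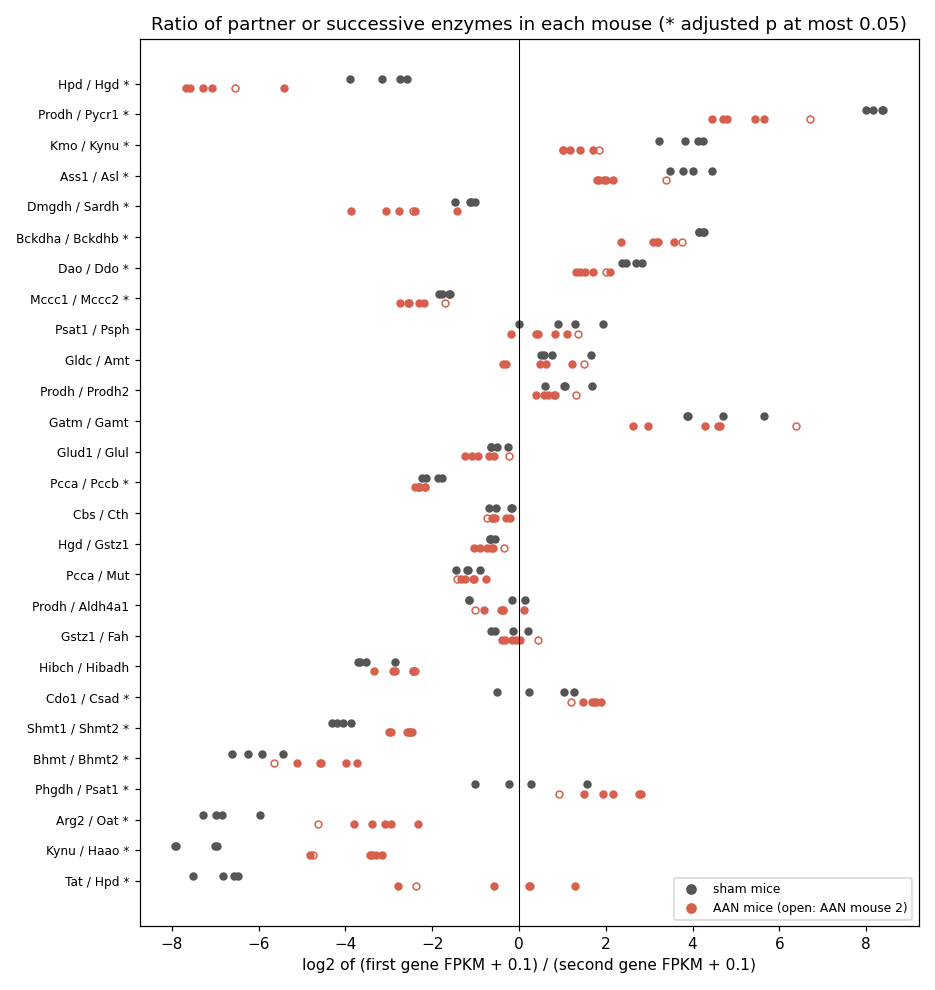
Log2 ratio of the FPKM + 0.1 of paired enzymes (horizontal axis) in each sham mouse (grey) and each AAN mouse (red, AAN mouse 2 open), with a star for pairs with an adjusted p of at most 0.05 in the exact permutation test. *Kmo*/*Kynu*, *Ass1*/*Asl*, *Shmt1*/*Shmt2* and *Arg2*/*Oat* are among the pairs whose groups do not overlap.

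Of a further list of 82 genes of amino acid metabolism that are no members, 75 were tested, 25 fell and 11 rose, beside 3.43% and 35.8% of all genes. The median of ratios gave 49 and 4, beside 10.5% and 19.0% of all genes. The largest falls among those with a level of at least 1 FPKM were those of *Acy3*, *Ido2*, *Gnmt*, *Acmsd* and *Ahcy*. *Acy3*, an aminoacylase, fell from 1047 ± 96.5 to 137.4 ± 48.6 FPKM (log2 fold change -2.99 ± 0.24, limma adjusted p = 9.3e-07). *Ido2* and *Acmsd*, both of the tryptophan and kynurenine pathway like *Haao*, fell by 2.61 and 2.07. *Gnmt* and *Ahcy*, of the methionine cycle that feeds *Cbs*, fell by 2.14 and 2.06.

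The largest rises on this list were those of *Arg1*, *Bcat1*, *Aldh18a1*, *Azin2* and *Baat*. *Arg1*, the cytosolic arginase, was listed at 0 in all 4 sham mice and at 0.259 to 13.7 FPKM in AAN mice, lowest in AAN mouse 2, so no fold is given. *Aldh18a1*, which makes the pyrroline carboxylate that *Pycr1* reduces, went from 0.646 ± 0.152 to 3.95 ± 0.781 FPKM (2.44 ± 0.20, limma adjusted p = 1.3e-06). *Bcat1*, the cytosolic aminotransferase of branched chain amino acids, rose by 3.14, from 0.0487 to 1.756 FPKM in sham mice to 1.38 to 4.64 FPKM in AAN mice. *Azin2* and *Baat* rose by 1.51 and 1.46 and missed the fold limit after the median of ratios.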

How the data were processed

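RNA of the renal cortex of 4 sham and 6 AAN mice was sequenced as paired-end libraries. The authors filtered the reads, mapped them to GRCm38 with HISAT2 and deposited FPKM values per known gene model from StringTie, 1 table per mouse, without counts and with no further scaling between mice named. The deposited FPKM values were used as they are. The authors tested with edgeR, which needs counts, so limma 3.58.1 in R 4.3.3 (lmFit, eBayes with trend and robust, two-sided) was used here on log2(FPKM + 0.1), for the 17129 genes whose average over all mice reached 0.1 FPKM. Benjamini-Hochberg adjustment ran over all of them, with the limits of adjusted p and fold from the methods of the study.

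The members, roles, pairs, marker lists, motifs and the list of other genes were chosen with earlier results of these data known. All members are named, and of the other amino acid genes the 5 largest falls and 5 largest rises past both limits with at least 1 FPKM in the higher group. Symbols of 21665 of 21792 genes came from GENCODE M21. Of the members, 19 of 53 overlap another listed gene, and strand use and the handling of shared fragments are not stated. Depth was recovered from values under 0.3 FPKM in genes with 1 transcript, where 94.6% to 96.9% of values per library were whole fragments within 0.05. Fragments of genes with several transcripts are approximate, and limits cover counting error only. The fit and the exact test were tested on simulated data. Python 3.11.15 with scipy 1.17.1 was used for the rest.

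The alternatives were a pseudocount of 1 or 0.01, a filter at 1 FPKM or none, the median of ratios, quantile normalization, the same total over nuclear genes, limma without trend and robust, no fold limit, and each mouse left out in turn. The 3 sham and 5 AAN mice whose tags start with B were fitted alone, an alternative chosen after seeing the data. The labels do not call the letters a batch.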

Additional observations from a re-analysis of the deposited data

Results flagged for a closer look

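Values were examined for a mouse that stood far from the rest of its group, by Dixon's gap on the log2 scale, in 184 groups of 4 or 6 mice (each member, enzyme pair and marker list in each treatment). The gap passed in 17 groups, against 9.2 that chance gives at 1 in 20. AAN mouse 2 made 13 of the 17, each time as the highest of the AAN mice.

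Among single genes, AAN mouse 2 had 361.0 FPKM of *Miox* (the other AAN mice had 84.95 to 131.1), 337.9 FPKM of *Ass1* (74.28 to 127.4) and 135.7 FPKM of *Bckdha* (63.71 to 82.66). It had 106.9 FPKM of *Gstz1* (39.32 to 56.82), 71.1 FPKM of *Shmt2* (37.82 to 45.26) and 60.61 FPKM of *Aass* (13.74 to 22.57). It had 40.74 FPKM of *Sardh* (9.413 to 13.42), 33.08 FPKM of *Prodh* (12.15 to 17.34), 18.0 FPKM of *Amt* (9.566 to 11.84) and 7.645 FPKM of *Kmo* (3.164 to 4.274). The log2 ratio of *Ass1* to *Asl* was 3.383 in this mouse and 1.808 to 2.157 in the others. Its mean log2 level was 5.937 for the proximal tubule markers (4.166 to 4.52 in the others) and 5.242 for the distal tubule and collecting duct markers (3.277 to 3.908). Its share of mitochondrially encoded transcripts, 34.1%, and its depth, 15.7 M fragments, lay within the range of its group.

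The other 4 were in sham mice. Sham mouse 4 had 2.069 FPKM of *Agmat*, against 0.8072 to 0.8202 FPKM in the others. Sham mouse 1 had the lowest *Asl*, at 26.61 FPKM against 32.86 to 34.12, and the lowest *Hibadh*, at 41.31 FPKM against 55.14 to 56.64. The T cell list had a mean log2 level of -1.907 in sham mouse 2 and of -0.5446 to -0.2995 in the other sham mice. What these differences reflect was not tested.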

How the results depend on the processing

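The number of members that fell was 27 and lay between 22 and 40 over the settings, with 23 to 32 when a mouse was left out. The number that rose was 4 and lay between 3 and 5, and was 4 to 5 with a mouse left out. Of the 27 calls, 20 passed in every setting, as did those of *Asns* and *Arg2*. The exceptions were *Bhmt*, *Prodh*, *Pcca*, *Mut* and *Aldh4a1*, and, in the mice with B tags, *Ivd* and *Ddc*, whose limma adjusted p ranged from 0.0010 to 0.064 and from 4.8e-04 to 0.062 over the settings. *Phgdh* was lost after the median of ratios, and *Pycr1* with a pseudocount of 1 and under quantile normalization.

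For the other amino acid genes, 25 fell, 49 after the median of ratios, 45 under quantile normalization and 40 when no fold was required, and 11 rose, 6 with a pseudocount of 1 and 4 each after the median of ratios and under quantile normalization. With a mouse left out they numbered 18 to 31 and 9 to 11. Of all genes, 588 fell, 1801 after the median of ratios, 2025 under quantile normalization and 1027 when no fold was required. Of all genes, 6126 rose, 3261 after the median of ratios, 2537 under quantile normalization, 4025 when filtered at 1 FPKM, 9482 with no limit on the fold and 2909 with a pseudocount of 1. The fold limit and the filter change how many genes can be called by construction, and the cause of the other shifts was not tested.

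Over these settings signs turned only in members that were not called. *Kynu* was -0.34 under quantile normalization, *Oat* -0.34 after the median of ratios, *Psph* -0.53 and -0.73 under these 2, and *Agmat* 0.40 in the mice with B tags. With a mouse left out, *Agmat* ranged from -0.15 to 0.27 (above 0 without sham mouse 4 or AAN mouse 1), *Glul* from -0.24 to 0.018 and *Psat1* from -0.44 to 0.0897. With *Tat*/*Hpd* counted, the pairs that differed numbered 16, 10 to 15 with a mouse left out (10 without sham mouse 2) and 10 in the mice with B tags. The *Gatm*/*Gamt* ratio ranged from -0.71 to 0.0918, *Prodh*/*Aldh4a1* from -0.0787 to 0.35, with -0.0106 in the mice with B tags, and *Pcca*/*Mut* from -0.0535 to 0.13. With 13.4 to 17.5 M fragments, values below about 0.1 FPKM rest on a few fragments. No paired analysis was possible because the labels give each mouse its own tag and tie no sham mouse to an AAN mouse. The numbers used here only name the mice.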
